A study of Ovis aries with 62 samples.

Results

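Of the 62 ewes whose ventral rumen wall was sequenced, 16 were tested in block 1, the first of 4 test periods, and these 16 sheep are described here as 8 sheep with low and 8 sheep with high expression of *LIPN*, which encodes a lipase of the outermost epidermal layers. The groups were chosen by *LIPN* alone: the 16 libraries were ranked by its log2 CPM (log2 of the reads of a gene as a share of the assigned reads of the library), and the ranking was cut in the middle. All sheep were adult ewes of Merino sires that received the same lucerne and oat chaff diet above maintenance. Each gave 1 library from a full-thickness sample of the ventral rumen wall, which holds the epithelium with the underlying connective tissue and muscle, and no treatment separates the groups. The 46 sheep of blocks 2 to 4 (16, 14 and 16 animals) were not used to choose the groups and serve as the comparison. Ewes shared sires, which the sample labels do not give, so the *p* values below take the sheep as independent.

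The rumen is lined by a stratified epithelium that cornifies as the skin does. Cells leave the basal layer, make keratins and desmosomes, and in the upper layers build a cornified envelope from small proline-rich proteins that transglutaminases crosslink, while lipases and ceramide enzymes make the lipids between the cells. The same epithelium absorbs the short chain fatty acids of fermentation, exchanges sodium for protons, and turns butyrate into ketone bodies.

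In the low *LIPN* group, *LIPN* lay at 2.14, 4.97 and 6.05 log2 CPM (lowest, median and highest of 8 sheep), and in the high *LIPN* group at 6.68, 7.51 and 8.37. The sheep just below the cut, oz40, had 6.05, and the sheep just above it, oz196, had 6.68. Sheep oz89 and oz171 had 27 and 29 reads of the gene, against 2553 in the highest sheep. The 46 sheep of blocks 2 to 4 lay between 6.65 and 9.34, so each of the 8 low *LIPN* sheep lay below all 46, and each high *LIPN* sheep lay within their range. Since *LIPN* chose the groups, and all genes come from the same libraries, the differences between both groups are a description, and no test was made of them.

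Cornification genes other than *LIPN* were checked against the names lost and kept. *KRT78*, a keratin of cornifying epithelia, was at 6.99, 9.10 and 11.07 log2 CPM in the low *LIPN* group and at 10.25, 11.36 and 12.34 in the high *LIPN* group. All 8 low *LIPN* sheep and 3 of the 8 high *LIPN* sheep had less *KRT78* than any sheep of blocks 2 to 4. *TGM1*, the transglutaminase that crosslinks the envelope, lay at 7.75, 8.99 and 10.22 in the low and at 9.10, 10.11 and 10.43 in the high *LIPN* group, and the groups overlapped for both genes. Expression was thus reduced and not absent in the low *LIPN* group, and not all of the high *LIPN* sheep were at the level of the other blocks, so the groups are named here by *LIPN* and not as lost and kept.

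**Figure D1:**
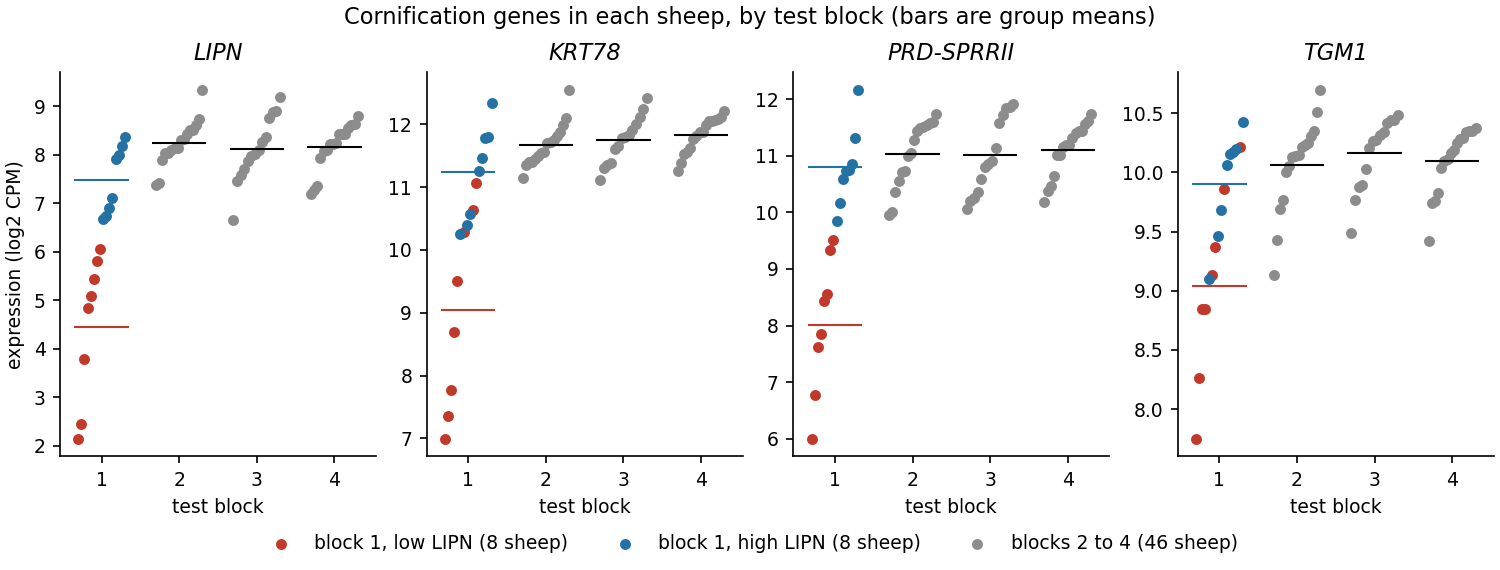
Expression of *LIPN*, *KRT78*, *PRD-SPRRII* and *TGM1* (log2 CPM, y axis) in each of the 62 sheep by test block (x axis), with block 1 divided into the low and high *LIPN* groups of 8 sheep and bars at group means. The low *LIPN* sheep spread downwards from 6.05 to 2.14 for *LIPN*, while the lowest of the other blocks was 6.65.

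The libraries of the low *LIPN* group held 4754572 to 7880165 assigned reads (median 5792823), those of the high *LIPN* group 5483135 to 9316064 (median 7388444), and those of blocks 2 to 4 4208032 to 12130080 (median 8567270). Of the 16011 genes, 1219 carry a symbol in the tables of the study, so named genes are drawn from those. Lists called textbook lists hold well known genes of a function, and only the members with a symbol could be measured. In whole tissue, fewer cells of a type and less RNA per cell cannot be told apart. Genes are compared between sheep and not with each other, since the values are not scaled to gene length.

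The 16 sheep formed a gradient that *LIPN* and the other epithelial genes did not order in the same way. Of the 43 genes of the study's epithelial differentiation list, 37 lay below all 46 other sheep in oz171, 34 in oz93, 30 in oz109, 27 each in oz89 and oz125, 17 in oz85, 13 in oz192 and 6 in oz40. In the high *LIPN* group, 19 did so in oz165, 13 in oz152 and 11 in oz196, and none in oz10, oz39, oz73, oz166 and oz184. Of all 9938 genes with no library under 3 CPM, 483 to 2003 lay below the 46 in the low *LIPN* sheep (median 1155). In the high *LIPN* sheep 113 to 669 of them did so (median 279.5). Sheep oz40, the highest of the low *LIPN* group in *LIPN*, had fewer reduced epithelial differentiation genes than 3 sheep of the high *LIPN* group. Ranked by the mean of the 43 genes, 6 of the 8 low *LIPN* sheep stayed in the lower group, while oz192 and oz40 changed places with oz165 and oz196.

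The mean of the 43 epithelial differentiation genes was 5.70, 6.61 and 7.77 log2 CPM in the low *LIPN* group, 6.93, 7.76 and 8.08 in the high *LIPN* group, and 7.13, 7.86 and 8.23 in blocks 2 to 4. The study chose this list on networks that include these libraries, so it is no independent evidence. In a full-thickness sample a larger share of muscle leaves a smaller share of epithelium. The mean of the study's 647 muscle genes lay at 5.85, 6.51 and 6.61 in the low *LIPN* group, at 5.71, 5.96 and 6.63 in the high *LIPN* group and at 5.02, 5.85 and 6.41 in blocks 2 to 4. The ranges of the 2 groups of block 1 overlapped almost wholly, but most low *LIPN* sheep lay near the upper end. Muscle and *LIPN* are thus partly confounded here. Within the groups, muscle went in part with the reduced genes. In the high *LIPN* group, oz196, oz165 and oz152 lay at 6.37, 6.51 and 6.63, and the other sheep between 5.71 and 5.97. In the low *LIPN* group, oz40 and oz192, with the fewest reduced epithelial genes, had the lowest muscle means, below the 6.28 of oz93. Among the rest, oz93 had 34 such genes reduced and oz85, at 6.55, had 17. Whether muscle share accounts for the gradient was not tested. Sheep oz152 had the highest muscle mean of all, 6.63, with an epithelial differentiation mean of 7.37, while oz89, at 6.61, had 6.22.

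**Figure D2:**
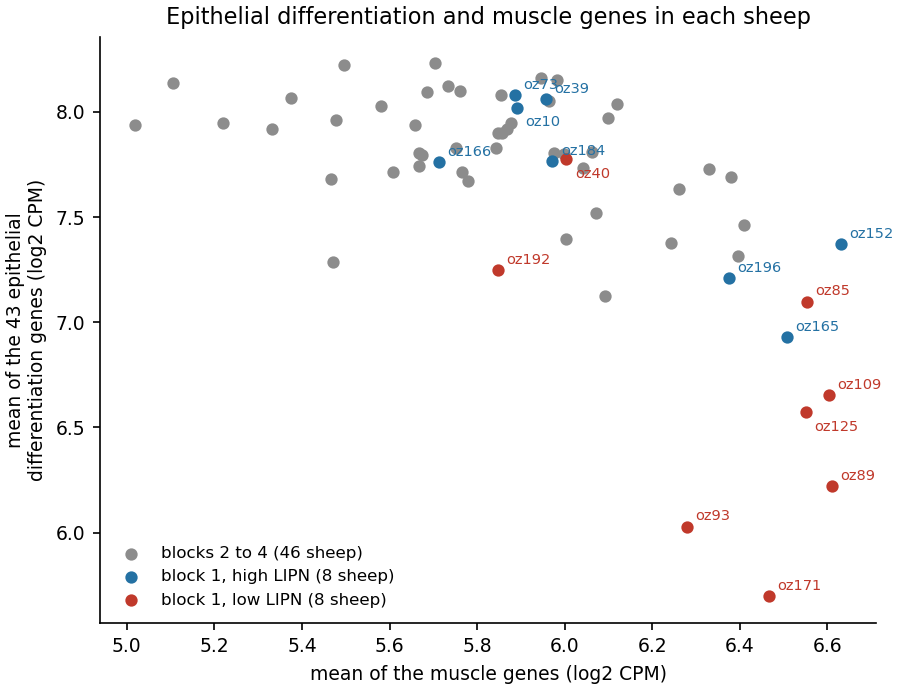
Mean of the 43 epithelial differentiation genes (log2 CPM, y axis) against the mean of the 647 muscle genes (log2 CPM, x axis) in each of the 62 sheep, colored by group, with block 1 sheep labeled. At a similar muscle mean, oz171 (6.47) lay at 5.70 and oz165 (6.51) at 6.93.

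Between the groups, 400 of the 16010 other genes were at least 2-fold lower in the low *LIPN* group (2.50% of genes) and 260 at least 2-fold higher (1.62%), while the median gene differed by 0.01 on the log2 scale. By any amount, 7785 of the 16010 genes were lower in the low *LIPN* group. The counts of lower list members below are to be read against these shares. For 39 genes (0.244%) all 8 low *LIPN* sheep lay below all 8 high *LIPN* sheep, and for 7 (0.0437%) all lay above. Many of these genes were little expressed: restricted to genes with no library under 3 CPM, 99 were at least 2-fold lower and 3 at least 2-fold higher. With the muscle mean held constant, 300 genes were at least 2-fold lower and 271 at least 2-fold higher.

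Precursors of the cornified envelope were lower in the low *LIPN* group. *PRD-SPRRII*, a small proline-rich protein gene, lay at 6.0, 8.15 and 9.51 log2 CPM in the low and at 9.85, 10.74 and 12.16 in the high *LIPN* group, without overlap. Its mean differed by -2.79 (low minus high, SE 0.49, 8 against 8 sheep), 6.92-fold, and by -2.48 with muscle held constant. The lowest of the 46 other sheep had 9.95, above all 8 low *LIPN* sheep.

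Its relatives followed with smaller differences and with overlap. *PRD-SPRRII-like1* lay at 8.70, 9.30 and 10.23 in the low and at 9.86, 10.83 and 11.86 in the high *LIPN* group, a difference of -1.38 (SE 0.34). *SPRR2-like1* differed by -1.42 (SE 0.51), *SPRR2-like2* by -1.31 (SE 0.50) and *SPRR2-like4* by -1.31 (SE 0.45). By their names these genes are relatives, though their sequences were not compared. The study counted only reads that mapped to a single place, so any reads shared between them are missing from these values. Of the 10 envelope genes measured from a textbook list of 29, all were lower and 6 at least 2-fold lower, with a median of -1.24 against 0.01 over all genes. The crosslinking enzymes differed less, with -0.87 (SE 0.33) for *TGM1* and -0.60 (SE 0.37) for *TGM3*, as did *KRTDAP*, which encodes a secreted protein of differentiating keratinocytes (-0.89, SE 0.21). *LGALS7*, a galectin of stratified epithelia, differed by -0.28 (SE 0.23).

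The 3 keratins measured differed from each other. *KRT78* differed by -2.19 (SE 0.61), 4.57-fold. *KRT6-B*, of the stress-related keratin 6 family, differed by -0.70 (SE 0.23). *KRT13*, a keratin of the suprabasal layers of internal epithelia, lay at 9.16, 10.39 and 11.72 in the low and at 8.95, 10.87 and 12.48 in the high *LIPN* group, and its difference was -0.46 with an SE of 0.46. Of the basal keratinocyte markers, *LAMA3* alone was measured. This laminin chain of the basement membrane was at 8.54 ± 0.42 in the low and 8.43 ± 0.19 in the high *LIPN* group (SD, *n* = 8 each).

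Enzymes of the lipid barrier were lower in all 13 genes measured, with a median of -0.54. *ACER1*, an alkaline ceramidase of the upper epidermis, lay at 2.93, 3.70 and 4.50 in the low and at 4.58, 4.96 and 5.45 in the high *LIPN* group. The groups did not overlap, and the difference was -1.28 (SE 0.21). *SULT2B1*, which makes cholesterol sulfate, differed by -1.28 (SE 0.48), the lipase *LIPH* by -1.05 (SE 0.29), and *SPTSSB*, a small subunit of serine palmitoyltransferase, by -0.85 (SE 0.18). The phospholipid transfer protein gene *PLTP* differed by -0.03 (SE 0.16).

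Surface proteases and their inhibitors were lower in all 9 genes measured (median -0.67). The membrane-bound serine proteases *Tmprss11g* and *TMPRSS11B* differed by -1.68 (SE 0.63) and -1.50 (SE 0.41), and the endoribonuclease *ENDOU*, which the list holds beside them, by -1.70 (SE 0.57). *ENDOU* ran from 5.19 to 9.84 in the low *LIPN* group, and its highest sheep lay within the range of the high *LIPN* group. The rhomboid protease *RHBDL2* differed by -0.99 (SE 0.29), with all 8 low *LIPN* sheep below the 46 other sheep. *SERPINB10*, a serine protease inhibitor, differed by -0.19 (SE 0.20).

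Junction genes were lower in all 12 measured, but none by 2-fold (median -0.47). The adhesion molecule *EPCAM* lay at 4.61, 5.01 and 5.50 in the low and at 5.43, 5.93 and 6.84 in the high *LIPN* group, so the groups overlapped narrowly, and all 8 low *LIPN* sheep were below the 46 other sheep. Its difference was -0.89 (SE 0.21). The actin-binding *POF1B* differed by -0.88 (SE 0.22), the desmosomal cadherin *DSG3* by -0.58 (SE 0.17) and E-cadherin, *CDH1*, by -0.31 (SE 0.13).

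Of the 8 alarmin and cytokine genes measured, 7 were lower. The calgranulins *S100A12*, *S100A9* and *S100A8*, which encode calcium-binding alarmins of keratinocytes and neutrophils, differed by -1.15 (SE 0.46), -1.12 (SE 0.50) and -0.95 (SE 0.37), and the endotoxin coreceptor *LY96* by -0.84 (SE 0.25). Markers of immune cells carry no symbol here, so a share of such cells was not measured. *S100A2* and the interleukin receptor *IL20RA* differed by -0.19 (SE 0.21) and 0.07 (SE 0.15).

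The list of epithelial transcription factors divided, with 5 of 10 genes lower and 5 higher (median -0.15). *PRDM1*, which encodes a transcriptional repressor that acts in terminal differentiation, differed by -1.02 (SE 0.33) and *ELF3* by -0.80 (SE 0.30). The ADP-ribosyltransferase gene *TIPARP*, which the list holds beside them, differed by -0.89 (SE 0.21). *TFAP2A*, a factor of proliferating and early differentiating keratinocytes, went the other way. It lay at 3.64, 4.19 and 4.75 in the low and at 1.91, 3.33 and 3.59 in the high *LIPN* group without overlap, 0.96 higher (SE 0.23), and all 8 low *LIPN* sheep lay above the 46 other sheep. *SOX13* was 0.59 higher (SE 0.18).

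Of the 12 transport genes measured, 11 were lower, 2 of them at least 2-fold (median -0.48). The apical sodium/proton exchanger *SLC9A3* lay at 5.28, 7.42 and 8.45 in the low and at 7.67, 8.81 and 9.09 in the high *LIPN* group, a difference of -1.49 (SE 0.38), and *SLC9A2* differed by -1.36 (SE 0.33). The glucose transporter *SLC5A1* differed by -0.95 (SE 0.39), and the proton pump subunit *ATP6V1E1* by -0.69 (SE 0.11) without overlap. The monocarboxylate transporter *SLC16A1* and its chaperone *BSG* differed by -0.14 (SE 0.23) and -0.21 (SE 0.12), and the carbonic anhydrase *CA12* by 0.03 (SE 0.18). All 8 ketone body genes were lower, none by 2-fold (median -0.15), and *BDH1*, which interconverts the ketone bodies, was at 8.97 ± 0.31 and 9.03 ± 0.36 log2 CPM (SD, *n* = 8 each).

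Genes outside these roles were among the 12 named genes furthest below. *PROSER2*, which encodes a proline- and serine-rich protein, differed by -2.18 (SE 0.56), and the mucin-type glycosyltransferase *GCNT3* by -2.06 (SE 0.48). The dual-specificity phosphatase *DUSP14* differed by -2.01 (SE 0.48), and *MAL*, a proteolipid of apical membrane sorting, by -1.65 (SE 0.34). In *GCNT3*, *DUSP14* and *MAL* all 8 low *LIPN* sheep lay below the 46 other sheep, and in each of the 3 genes 3 high *LIPN* sheep did so too. Over the 12 genes, oz93 lay below the 46 sheep in 12 and oz40 in 7, and of the high *LIPN* group oz165 did so in 10, oz196 in 8 and oz152 in 7. Of the 9938 genes with no library under 3 CPM, oz93 lay below the 46 sheep in 1116 and oz40 in 483. That count was 558 in oz165, 456 in oz196 and 669 in oz152.

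The 12 named genes furthest above differed by 0.80 to 1.31, less than any of the 12 furthest below. *ZNF469*, a zinc finger gene, lay at 1.85, 3.21 and 3.94 in the low and at -0.36, 1.83 and 2.51 in the high *LIPN* group, 1.31 higher (SE 0.42). The factor *RFX7* was 1.16 higher (SE 0.30), the GTPase activating *ARHGAP17* 0.96 higher (SE 0.28), and *SUFU*, a repressor of hedgehog signaling, 0.90 higher (SE 0.29). The Wnt cofactor *BCL9L* (0.88, SE 0.30), *ZFHX3* (0.88, SE 0.32), the mitochondrial carrier *UCP2* (0.88, SE 0.29), *ATN1* (0.83, SE 0.34), *NFIC* (0.82, SE 0.23) and the histone demethylase *KDM6B* (0.80, SE 0.37) completed them with *TFAP2A* and *MKI67*. With muscle held constant, the 12 differences ran from 0.46 to 1.09.

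*MKI67*, the proliferation marker, lay at 7.43, 7.53 and 8.11 in the low and at 5.78, 6.95 and 7.54 in the high *LIPN* group, 0.82 higher (SE 0.24), and all 8 low *LIPN* sheep lay above the 46 other sheep. The cell cycle genes as a list were not apart. The mean of the study's 43 cell cycle genes was 4.77 ± 0.48 in the low and 4.75 ± 0.40 in the high *LIPN* group (SD, *n* = 8 each). Of the 43, 22 were lower, near the share of all genes (7785 of 16010). The kinetochore gene *CASC5* differed by 0.41 (SE 0.23).

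**Figure D3:**
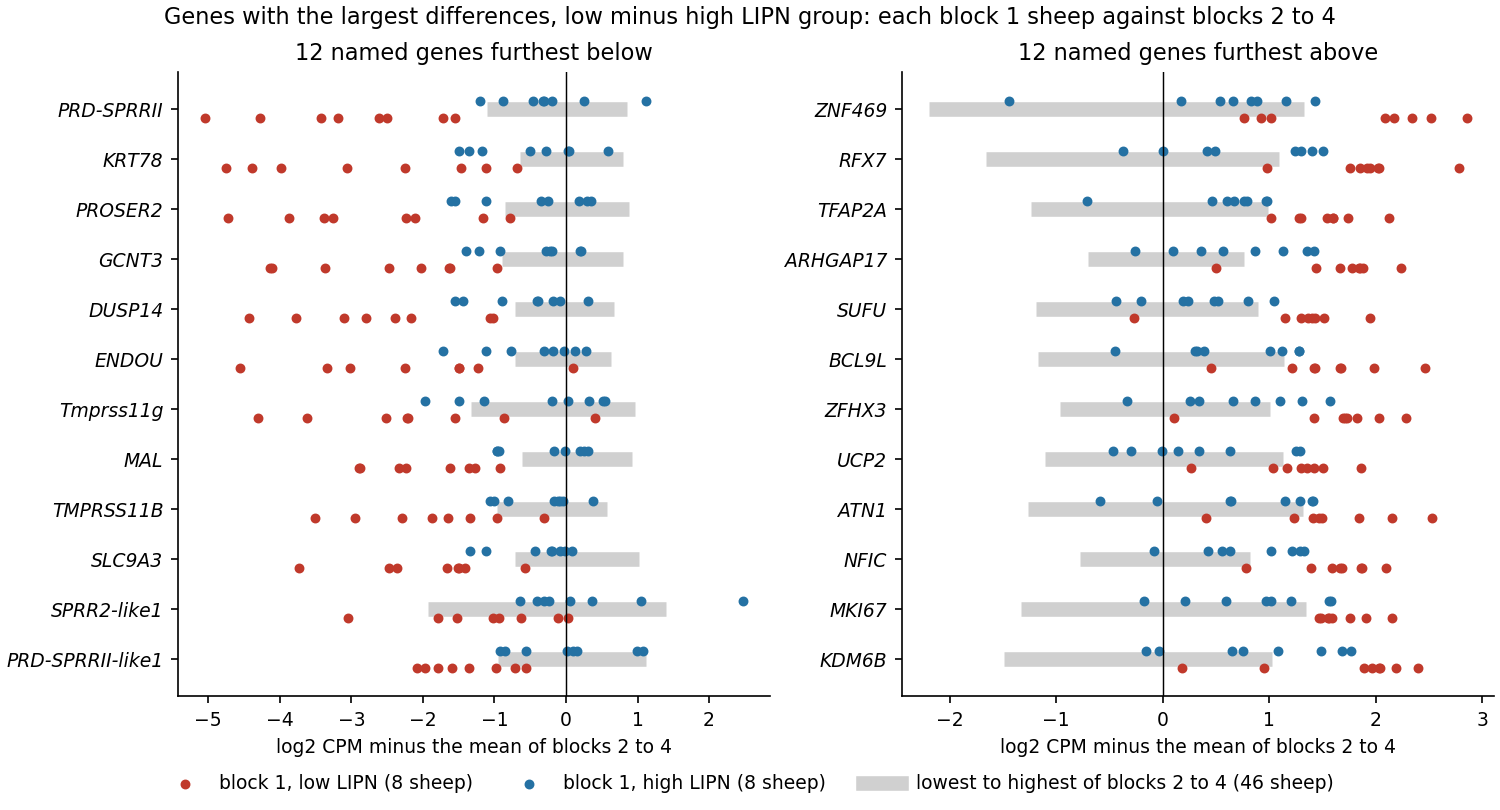
The 12 named genes furthest below and furthest above in the low against the high *LIPN* group, with each block 1 sheep (points) and the range of the 46 other sheep (gray) as log2 CPM minus the mean of blocks 2 to 4 (x axis). *PRD-SPRRII* and *TFAP2A* were without overlap, and several high *LIPN* sheep also lay outside the gray range.

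Muscle and matrix genes overlapped between the groups. The summed level of 14 smooth muscle contractile genes was 15617 to 84073 CPM in the low (median 46027) and 28484 to 77562 CPM in the high *LIPN* group (median 35525), against a median of 29335 CPM in blocks 2 to 4. The smooth muscle myosin *MYH11* differed by 0.09 (SE 0.33) and desmin, *DES*, by 0.01 (SE 0.38). The 17 fibroblast and matrix genes summed to 3783 to 9834 CPM in the low (median 7271) and 4221 to 8142 CPM in the high *LIPN* group (median 6388). Of these, *COL6A2* differed by 0.51 (SE 0.16), *COL6A1* by 0.49 (SE 0.21) and *FN1* by 0.49 (SE 0.36). The genes of both lists all belong to the study's muscle list. Markers of endothelium, immune cells and enteric neurons and glia have no symbol in these tables and were not measured, and their part in the differences was not tested.

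The metabolic lists of the study, which were likewise drawn on these libraries, were mostly lower. All 42 general metabolism genes were lower with a median of -0.32, none of them 2-fold, as were 37 of 41 lipid and oxo-acid genes (median -0.24) and 345 of 353 other metabolism genes (median -0.34). Over all genes 7785 of 16010 were lower. The last list holds 10 genes at least 2-fold lower, *DUSP14*, *MAL*, *TMPRSS11B* and *SLC9A2* among them, and 11 without overlap. Over all genes 2.50% were at least 2-fold lower, a share near that of this list, and 0.244% were lower without overlap. The reductase *AKR1D1* lay at 8.14, 8.95 and 9.19 in the low and at 9.44, 9.86 and 10.45 in the high *LIPN* group, without overlap, and differed by -1.05 (SE 0.17). Of the 16 type I interferon genes 10 were lower (median -0.13), with *OAS2* at -0.55 (SE 0.34).

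Among genes at 3 CPM or more on average, the furthest apart had no symbol. *ENSOARG00000010426* was at -3.78, -2.87 and 1.07 log2 CPM in the low and at -3.45, 3.48 and 4.41 in the high *LIPN* group, and *ENSOARG00000004832* at -1.14, 1.19 and 7.19 and at 4.19, 6.17 and 8.33. *ENSOARG00000021347* was at -3.64, 2.60 and 3.44 and at -4.28, -3.80 and 3.21, and *ENSOARG00000013833* at 0.00, 2.56 and 3.83 and at -2.35, -0.07 and 1.54. The groups overlapped in all 4 genes. In blocks 2 to 4 the first of them ranged from -4.19 to 4.88, so sheep with hardly any reads of it were found outside block 1.

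Whether genes go with *LIPN* in sheep that did not choose the groups was tested over the 46 sheep of blocks 2 to 4 (limma slope on *LIPN* with block as a factor, Benjamini-Hochberg adjusted over 16010 genes). The slope was positive for 1502 genes (9.38%) and negative for 1706 (10.7%) at an adjusted *p* below 0.05. The balance depended on the scaling and the filter, with 2300 positive and 1649 negative after each library was centred on its median gene, and 1509 and 1250 among genes with no library under 3 CPM. Of the 400 genes at least 2-fold lower in the low *LIPN* group, 59 had a positive slope (14.8% of the 400, 3.93% of the 1502) and 18 a negative one. Of the 39 without overlap, 20 had a positive slope and none a negative one. Of the 260 at least 2-fold higher, 3 had a positive and 21 a negative slope (8.08%), below the 10.7% of all genes.

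The slopes went with muscle. The muscle mean was 5.96 ± 0.26 in the 23 sheep ranked lower and 5.67 ± 0.33 in the 23 ranked upper by *LIPN* within blocks 2 to 4 (SD), and with the muscle mean as a covariate no gene kept an adjusted *p* below 0.05 in limma, although 1418 had an unadjusted *p* below 0.05. *LIPN* and the muscle share cannot be told apart in these 46 sheep.

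Of the 12 named genes furthest below, 6 rose with *LIPN* in blocks 2 to 4, among them *SLC9A3* (slope 0.45 log2 per log2 unit of *LIPN*, SE 0.07, adjusted *p* = 0.00011), *MAL* (0.38, SE 0.06, adjusted *p* = 0.000118) and *KRT78* (0.32, SE 0.08, adjusted *p* = 0.0041). The slope of *PRD-SPRRII*, the named gene with a symbol furthest below after *LIPN*, was 0.01 (SE 0.15, adjusted *p* = 0.976). *SPRR2-like1* had -0.54 (SE 0.21, adjusted *p* = 0.0552) and *TGM1* 0.11 (SE 0.09, adjusted *p* = 0.423). All 8 ketone body genes had a positive slope past the threshold, such as *ACADS* (0.48, SE 0.08, adjusted *p* = 0.000118), although they differed little between the groups of block 1. All 14 smooth muscle genes had a negative slope past it. Among all genes, 9.38% rose and 10.7% fell with *LIPN* past this threshold. Once muscle was held constant, no gene did so in either direction. Of the 12 named genes furthest above, *ATN1* and *ZFHX3* fell with *LIPN*, and the slope of *MKI67* was -0.13 (SE 0.14, adjusted *p* = 0.528).

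The low *LIPN* group was then placed against the 23 lower-ranked sheep of blocks 2 to 4, chosen by the same cut within each block. In limma, 2817 genes were lower in the low *LIPN* group (17.6%) and 2175 higher (13.6%). With the muscle mean as a covariate, 2053 were lower (12.8%) and 1616 higher (10.1%). The low *LIPN* sheep are the same animals as in the description above, so genes chosen there are not independent of this comparison. Test block and everything that went with it, of which the labels give nothing more, cannot be told apart from this difference.

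All 12 named genes furthest below were lower in this placement, with differences of -3.08 to -1.44 on the log2 scale, and all 12 remained so with muscle held constant (highest adjusted *p* = 0.0103). The 12 were chosen on these same low *LIPN* sheep, so that all passed is no independent evidence. *PRD-SPRRII* differed by -3.08 (SE 0.27, adjusted *p* = 1.11e-13), *KRT78* by -2.58 (SE 0.26, adjusted *p* = 7.89e-12) and *TGM1* by -1.05 (SE 0.17, adjusted *p* = 1.49e-06). Limma takes 1 variance for all groups, and the SD of *KRT78* was 1.57 in the low *LIPN* group against 0.33 in blocks 2 to 4, so these errors are too small for genes that spread most. With a weight for each group, 2583 genes were lower and 1898 higher.

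By role, genes lower in the low *LIPN* group than in the lower-ranked sheep were counted, where 17.6% of all genes were lower. They were 9 of 10 cornified envelope genes, 12 of 13 barrier lipid enzymes, 8 of 9 surface proteases and inhibitors and 12 of 12 junction genes. Further, they were 6 of 8 alarmin and cytokine genes, 9 of 12 transport genes and 5 of 10 genes of the transcription factor list. With muscle held constant these were 8, 8, 7, 9, 6, 6 and 4 genes. Only 2 of 8 ketone body genes were lower, *ACAT1* (-0.37, SE 0.12, adjusted *p* = 0.0122) and *ECHS1* (-0.31, SE 0.09, adjusted *p* = 0.0068), and neither passed with muscle held constant. *KRT13* differed by -0.01 (SE 0.34, adjusted *p* = 0.98). No smooth muscle gene passed in either direction, while 8 of 14 were lower with muscle held constant, where 12.8% of all genes were. The muscle mean includes these 14 genes, so holding it only places them against the other muscle genes. Of the study's 647 muscle genes, 279 were higher and 0 lower, where 13.6% of all genes were higher. Of the 17 fibroblast and matrix genes 7 were higher, and of the 353 other metabolism genes 314 were lower and 1 higher. With muscle held constant, 112 muscle genes were higher and 89 lower, 0 matrix genes were higher, and 233 other metabolism genes were lower. *LAMA3* was 0.33 higher (SE 0.12, adjusted *p* = 0.0271).

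Higher in the low *LIPN* group than in the lower-ranked sheep were all 12 named genes furthest above, by 1.10 to 1.77, and all 12 also passed with muscle held constant. Like those furthest below, they were chosen on these same low *LIPN* sheep, so that all passed is no independent evidence. *RFX7* was 1.77 higher (SE 0.23, adjusted *p* = 1.38e-08), *MKI67* 1.65 higher (SE 0.20, adjusted *p* = 1.47e-09) and *NFIC* 1.52 higher (SE 0.17, adjusted *p* = 9.08e-11). Of the 43 cell cycle genes, 7 were higher and none lower, where 13.6% of all genes were higher, and with muscle held constant 25 were higher, where 10.1% of all genes were. Of the 16 type I interferon genes 9 were lower, where 17.6% of all genes were, among them *OAS2* (-1.50, SE 0.34, limma adjusted *p* = 0.000346). With muscle held constant 3 were lower, where 12.8% of all genes were, among them *OAS2* (-1.16, limma adjusted *p* = 0.0112).

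The high *LIPN* group differed from the 23 upper-ranked sheep of blocks 2 to 4 in fewer genes, with 576 lower (3.60%) and 824 higher (5.15%). This count moved with single sheep: without oz166 there were 1006 lower and 1332 higher, without oz152 127 and 247, without oz165 186 and 266, without oz196 201 and 301, and without oz39 321 and 510. Without the 16 sheep of block 4, 33 were lower and 80 higher. With the muscle mean as a covariate, 1 was lower and 5 higher, with 1874 at an unadjusted *p* below 0.05. The muscle mean was 6.12 ± 0.34 in the high *LIPN* group (SD, *n* = 8) against 5.67 in the upper-ranked sheep. Whether the low and the high *LIPN* group differ in their distance from blocks 2 to 4 was not tested.

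Of the 43 epithelial differentiation genes 6 were lower in the high *LIPN* group, and of the 9 surface proteases and inhibitors 4 were, none of them with muscle held constant. Over all genes 3.60% were lower in this placement. *PRD-SPRRII* differed by -0.21 (SE 0.27, adjusted *p* = 0.677), *TGM1* by -0.22 (SE 0.17, adjusted *p* = 0.437) and *KRT78* by -0.65 (SE 0.26, adjusted *p* = 0.0978). Of the 10 envelope genes 1 was lower, *KRTDAP* (-0.48, SE 0.14, adjusted *p* = 0.0277), and of the 12 named genes furthest below 3 were, *DUSP14* (-0.71, SE 0.21, adjusted *p* = 0.0255), *GCNT3* (-0.68, SE 0.22, adjusted *p* = 0.0419) and *SLC9A3* (-0.59, SE 0.18, adjusted *p* = 0.0349). None of these 4 passed with muscle held constant. These averages hold sheep that lay at the level of blocks 2 to 4 together with oz152, oz165 and oz196, which did not.

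Most of the genes furthest above were higher on average in the high *LIPN* group as well, but not in each of its sheep. Of the 12, 9 were higher than in the upper-ranked sheep, such as *NFIC* (0.90, SE 0.17, adjusted *p* = 0.00122), *MKI67* (0.91, SE 0.20, adjusted *p* = 0.00407) and *ZFHX3* (0.87, SE 0.19, adjusted *p* = 0.00427). *MKI67* alone passed with muscle held constant (adjusted *p* = 0.0415). *SUFU*, *UCP2* and *ZNF469* did not pass, with 0.46 (SE 0.19), 0.28 (SE 0.22) and 0.72 (SE 0.30). Of the 647 muscle genes, 274 were higher and 1 lower, and of the 353 other metabolism genes 129 were lower, where 5.15% of all genes were higher and 3.60% lower. With muscle held constant, 0 genes of either list passed in limma. The held mean is that of the 647 muscle genes themselves, so it takes out what they share.

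**Figure D4:**
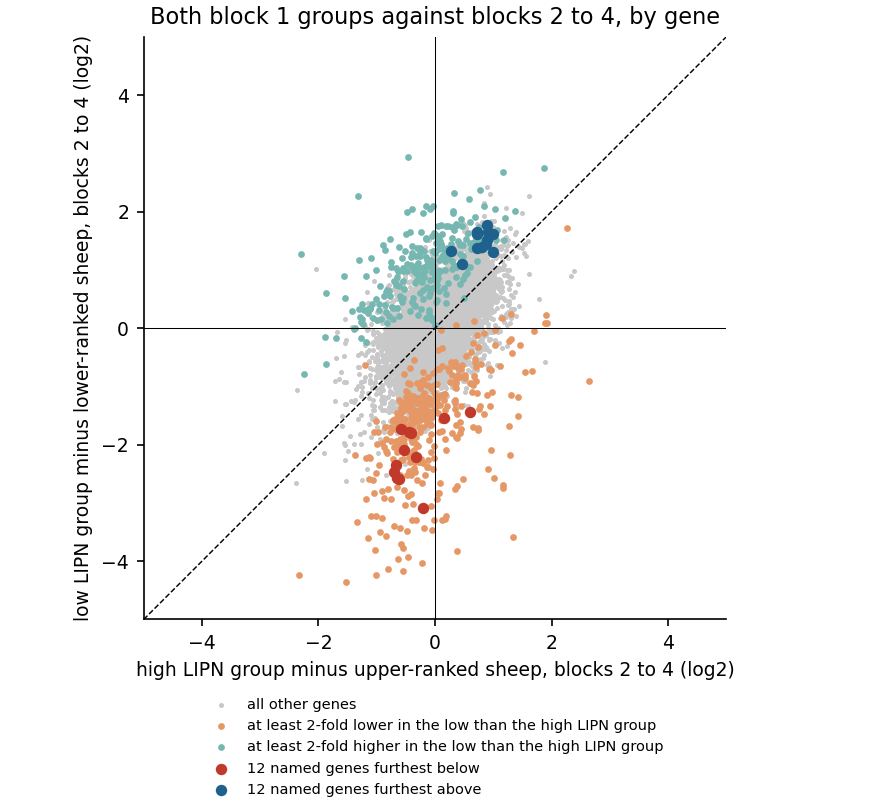
For each of 16010 genes, the difference of the low *LIPN* group from the lower-ranked sheep of blocks 2 to 4 (log2, y axis) against that of the high *LIPN* group from the upper-ranked sheep (log2, x axis), with the line of equality dashed. Genes at least 2-fold apart between the block 1 groups are colored, which sets their side of the line by construction, and the 12 named genes furthest below lie between -3.08 and -1.44 on the y axis but between -0.71 and 0.60 on the x axis.

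**Figure D5:**
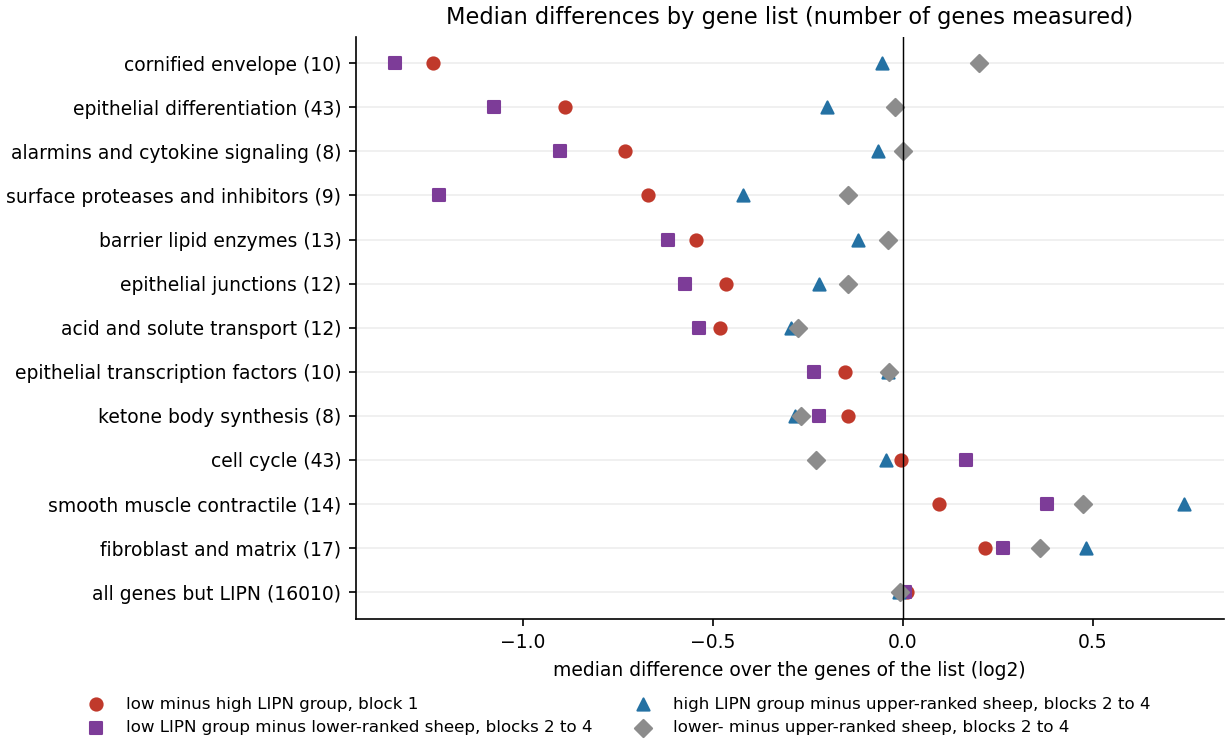
Median difference over the genes of each list (log2, x axis) for the 2 groups of block 1, for each group against the sheep of matching rank in blocks 2 to 4, and for the lower-ranked against the upper-ranked sheep of blocks 2 to 4. Cornified envelope genes lay at -1.24 between the block 1 groups and at 0.20 between the lower- and upper-ranked sheep of blocks 2 to 4, while the median of all genes was between -0.01 and 0.01 after rounding to 2 decimals in each comparison.

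Live weight, CH4 production, dry matter intake (DMI) and CH4 yield come from the sample labels and were not used to choose the groups. CH4 yield was 16.7, 18.7 and 22.4 g/kg DMI in the low *LIPN* group and 17.0, 19.1 and 21.5 in the high *LIPN* group. The means differed by -0.259 g/kg DMI (SE 0.863, exact permutation *p* = 0.765, adjusted over 4 traits *p* = 0.879). CH4 production was 24.3 ± 4.50 and 26.2 ± 4.12 g/d (SD, *n* = 8 each; difference -1.99, SE 2.16, exact permutation *p* = 0.367, adjusted *p* = 0.879), and the ranges overlapped in all 4 traits.

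DMI was 1.30 ± 0.284 and 1.37 ± 0.196 kg/d (SD, *n* = 8 each; difference -0.0737, SE 0.122, exact permutation *p* = 0.556, adjusted *p* = 0.879). Live weight was 62.2 ± 12.2 and 63.1 ± 6.28 kg (SD, *n* = 8 each; difference -0.875, SE 4.84, exact permutation *p* = 0.879, adjusted *p* = 0.879). The sign of that difference turned to 1.5 kg without the sheep at the cut and to 8 kg when the sheep were ranked by the epithelial differentiation genes, and it was -4.48 kg without oz93. Under that ranking CH4 production and DMI turned as well, to 4.11 g/d and 0.229 kg/d, and CH4 yield turned to 0.168 g/kg DMI without the sheep at the cut. All tests were 2-sided. The low *LIPN* group held both the heaviest sheep of block 1, oz93 with 87.5 kg, and the lightest, oz40 with 49.5 kg. These tests do not show that the groups were alike, since differences of the size of their SE could not have been detected with 8 sheep a group.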

How the data were processed

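Ventral rumen wall RNA of 62 sheep was sequenced from stranded, ribosomal RNA-depleted libraries. Per the labels and the study's methods, the authors aligned reads with TopHat and Bowtie2 to sheep Ensembl genes and 14 added epidermal gene models, counted them with HTSeq and deposited log2 CPM values from voom (limma). Whole reads were recovered from 100% of the deposited log2 values (tolerance 0.01 reads, offset 0.5), which gave 4208032 to 12130080 assigned reads per library. Voom values of low genes carry more counting error.

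The 16 block 1 sheep were ranked by *LIPN*, and blocks 2 to 4 were divided in the same way. Differences between the block 1 groups are means without a test, with SE from both SDs. Slopes on *LIPN* and placements against blocks 2 to 4 were fitted with limma 3.58.1 (R 4.3.3, trend) on 16010 genes, Benjamini-Hochberg adjusted at 0.05. All 62 sheep entered the placements and 46 the slopes, with block as a factor in the slopes only. Traits were compared by exact permutation (scipy 1.17.1). The scripts were tested on simulated data. Alternatives were the muscle mean or read depth as covariates, median centring, a 3 CPM minimum, robust and weighted fits, ranking by epithelial differentiation genes, and leaving out the sheep at the cut, single sheep or blocks.

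Named genes were the markers, the 12 genes with a symbol furthest below and the 12 furthest above at 3 CPM or more on average, and up to 4 members of each list with the largest differences. Other list members and genes without overlap were named after their values were seen. Members, lists and tests were chosen with earlier results of these data known. Sequences were not used here.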

Additional observations from a re-analysis of the deposited data

Results flagged for a closer look

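Within each group of 8 sheep, 13 values stood apart from the other sheep by Dixon's criterion, among 182 group values examined. Chance flags about 1 in 20 groups. Of these, 5 belonged to oz40, the low *LIPN* sheep next to the cut. It was the lowest of its group for *ZFHX3* (5.04 log2 CPM, next 6.35), *SUFU* (2.03, next 3.44) and *ARHGAP17* (4.27, next 5.20), and the highest for *SEC11C* (5.16, next 4.34) and a cell cycle gene without a symbol (6.78, next 5.71). It had 2 of the 12 named genes furthest above beyond the range of blocks 2 to 4, against 10 to 12 in the other low *LIPN* sheep. Of the 9938 genes with no library under 3 CPM, 469 lay above that range in oz40, the fewest of the low *LIPN* group (median 977).

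In the high *LIPN* group, oz166 was the lowest for *TFAP2A* (1.91 log2 CPM, next 3.09), *ZNF469* (-0.36, next 1.26), *COL6A1* (6.45, next 7.18) and *BGN* (4.03, next 4.61). It also had the lowest muscle mean of block 1, 5.71. Sheep oz152 was the lowest for *MGST2* (4.47, next 5.22).

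The other values were *POF1B* in oz89 (6.01 log2 CPM, next 6.66), *ENSOARG00000021347* in oz85 (-3.64, next 2.16) and *ENSOARG00000010426* in oz39 (-3.45, next 3.05).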

How the results depend on the processing

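Both counts of the low *LIPN* group against the lower-ranked sheep stayed within 1.5 times their value under every alternative run, with 2448 to 3090 genes lower and 1830 to 2453 higher when single sheep were left out. Genes at least 2-fold apart in block 1 numbered 361 to 489 lower and 237 to 345 higher without single sheep, 402 higher when ranked by epithelial differentiation genes, and 99 lower and 3 higher at 3 CPM or more in all libraries, where fewer genes enter.

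Slopes on *LIPN* were 0 positive and 0 negative with muscle as a covariate (1418 at an unadjusted *p* below 0.05 in limma), 2300 positive and 1649 negative after median centring, and 1509 and 1250 with no library under 3 CPM. They were 804 positive and 909 negative without block 2, 534 and 530 without block 3, and 678 and 995 without block 4, where fewer sheep enter.

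The high *LIPN* group against the upper-ranked sheep gave 5 higher and 1 lower with muscle as a covariate, 207 and 109 when ranked by epithelial differentiation genes, and 80 and 33 without block 4. Without single sheep these ran from 247 to 1332 higher and 127 to 1006 lower. The cause was not tested.

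The trait differences, none past the threshold, reversed in some alternatives. Live weight differed by 1.5 kg and CH4 yield by 0.168 g/kg DMI without the sheep at the cut. Ranked by epithelial differentiation genes, live weight differed by 8 kg (adjusted exact permutation *p* = 0.110), CH4 production by 4.11 g/d and DMI by 0.229 kg/d (both 0.106). Without single sheep, the ranges were -4.48 to 0.946 kg, -2.75 to -0.870 g/d, -0.128 to -0.00626 kg/d and -0.761 to 0.0744 g/kg DMI. No paired analysis was possible because replicate numbers are in accession order.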
